A study of Mus musculus with 9 samples.

Results

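The DNA replication machinery was followed as 40 genes, chosen by symbol, out of 19937 genes with a value on the arrays. The genes encode the proteins that license origins (5 genes), the helicase and its activating cofactors (12), and the replicative polymerases and primase (9). The others encode the sliding clamp and its loader (6), the single-strand binding, flap-trimming and ligation proteins (4) and the enzymes of nucleotide supply (4). All 40 were measured, and no filter on low values was applied.

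The cells were MC3T3-E1 subclone 4, a mouse preosteoblast line derived from calvaria that forms and mineralizes a bone-like matrix in culture. All cells had been infected with lentivirus and sorted for green fluorescent protein (GFP). The virus carried a short hairpin RNA (shRNA) with a scrambled sequence (Scr) or with a sequence against Runx2 (shRunx2), which encodes the transcription factor that commits cells to the osteoblast lineage. Expression was measured on microarrays (Affymetrix Mouse Gene 1.0 ST) for 3 groups of 3 biological replicates: proliferating Scr cells (day 0), and Scr cells and shRunx2 cells after 9 days of osteogenic differentiation with ascorbic acid and beta-glycerophosphate, begun at near confluence (day 9). All samples came from a single cell line, and 1 hairpin against Runx2 was used. There were no shRunx2 cells at day 0. The level of Runx2 is not analysed here.

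Before a cell divides, its genome is copied from many origins. The origin recognition complex (ORC), Cdc6 and Cdt1 load the ring of MCM proteins on DNA in G1 phase. In S phase, Cdc45 and the GINS complex bind this ring and turn it into the active helicase. DNA polymerase alpha with primase lays down primers, polymerases epsilon and delta extend them, and Pcna, a clamp placed by replication factor C (RFC), keeps the polymerases on the template. Many of these genes are transcribed late in G1 phase under E2F transcription factors. Preosteoblasts multiply before they lay down matrix, and proliferation slows as they differentiate.

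Values are deposited log2 expression values, so that a difference of -1 on this scale means a halved level. A gene was said to fall or rise when its adjusted p was under 0.05 in limma with all 19937 genes in the fit. Replicate arrays were alike, with a lowest correlation of 0.998 over genes. The mean of the 7 measured osteoblast markers (of 10 listed) was 10.50 to 10.57 on the day 0 arrays, 11.77 to 11.81 on the Scr day 9 arrays and 11.21 to 11.24 on the shRunx2 arrays. Of these markers, Alpl, Ibsp, Sp7 and Phex were higher at day 9 and lower in shRunx2 than in Scr cells. Col1a1 (log2 changes 0.06 and -0.03), Col1a2 (0.06 and -0.01) and Sparc (0.06 and -0.0008) did not pass in either comparison. Lists of 9 macrophage and leukocyte, 6 endothelial, 5 adipocyte and 6 skeletal muscle markers had array means of 7.76 to 7.92, 7.45 to 7.57, 7.26 to 7.40 and 8.34 to 8.53, respectively. The macrophage and leukocyte mean moved with the groups, at 7.76 to 7.77 at day 0, 7.86 to 7.87 in Scr day 9 and 7.88 to 7.92 in shRunx2 cells. Of its 9 genes, Lyz2 (log2 change 0.80) and Fcer1g (0.50) rose and Cd14 (-0.32) fell by day 9 in Scr cells, and Lyz2 rose (0.42) and Fcer1g fell (-0.27) in shRunx2 compared with Scr cells. The others, among them Ptprc, Csf1r and Adgre1, did not pass in either comparison. The part of such cells in the results was not tested.

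To determine how the replication genes behaved as preosteoblasts differentiated, Scr cells at day 9 were compared with Scr cells at day 0. Of the 40 genes, 33 fell, none rose and 7 did not pass. Of all genes, 17.1% fell and 14.5% rose. The median log2 change of the 40 genes was -0.33, which leaves 79.7% of the day 0 level, and that of all genes was -0.02. The falls were small. Mcm3, with 64.5% of its day 0 level left, was the only one of the 40 genes that fell at least 1.5-fold, compared with 2.25% of all genes. They were also regular across arrays: 34 of the 40 genes had all day 9 arrays below all day 0 arrays, compared with 22.0% of all genes. The mean of the 40 genes was 10.68, 10.65 and 10.61 on the day 0 arrays and 10.35, 10.32 and 10.32 on the Scr day 9 arrays. In bulk RNA, fewer cells in S phase and less of these transcripts in each cell cannot be told apart. The osteogenic medium, the time in culture and any change in cell density went together between these groups. Their parts in the falls cannot be told apart either.

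**Figure D1:**
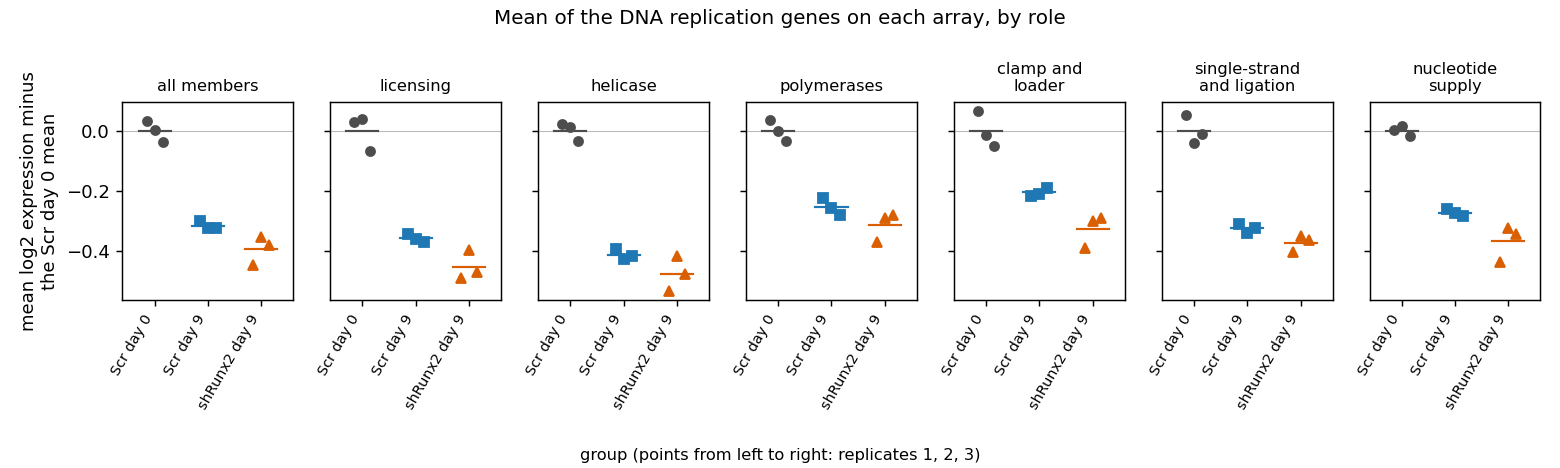
Mean log2 expression of the 40 DNA replication genes and of each role (vertical axis, relative to the Scr day 0 mean) on each array of the 3 groups (horizontal axis), with 1 point per array and a line for the group mean. The Scr day 9 arrays lie below all day 0 arrays in every role, and for all 40 genes the shRunx2 arrays average 10.20, 10.30 and 10.27 against 10.35, 10.32 and 10.32 in Scr cells at day 9.

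Because these genes moved together, the 300 bases around their start sites (250 before, 50 after; RefSeq, GRCm38.p6) were searched for short words, for 33 of the 40 genes with an entry. The words TTTCCCGC, TTTCGCGC, TTTGCCGC and TTTGGCGC, which spell the core bound by E2F factors, were looked for on both strands. At least 1 of them stood in the promoters of 14 of the 33 genes (14 of 39 promoters, 35.9%), compared with 2.26% of all 32851 promoters. The CCAAT box (CCAAT) stood in 59.0% of the promoters of these genes and 37.4% of all, the GC box (GGGCGG) in 66.7% and 35.7%, the cell cycle genes homology region (TTTGAA) in 12.8% and 17.9%, and the Runx core (TGTGGT) in 20.5% and 16.8%. The median GC content was 57.3% in the promoters of these genes and 52.7% in all. These are counts of letters, not of bound sites. The windows below show the E2F words that lie before the start site in 5 of the 6 such genes that fell (Rfc3, with a word just before its start, is not shown) and in Gins3 and Pola1, which held such a word and did not pass. They are written 5′ to 3′ on the strand of the gene, with the words in capitals.
Orc1, chr4:108579411-108579450, plus strand: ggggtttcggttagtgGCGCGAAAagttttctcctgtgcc
Cdc6, chr11:98907997-98908036, plus strand: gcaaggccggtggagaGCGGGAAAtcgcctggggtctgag
Mcm5, chr8:75109340-75109383, plus strand: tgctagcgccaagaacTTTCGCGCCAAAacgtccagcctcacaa
Mcm6, chr1:128359788-128359831, minus strand: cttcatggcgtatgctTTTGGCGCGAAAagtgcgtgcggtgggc
Mcm6, chr1:128359729-128359768, minus strand: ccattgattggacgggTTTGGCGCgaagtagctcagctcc
Mcm7, chr5:138172025-138172064, minus strand: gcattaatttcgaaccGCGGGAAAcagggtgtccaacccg
Gins3, chr8:95633502-95633541, plus strand: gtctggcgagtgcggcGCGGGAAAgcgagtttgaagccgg
Pola1, chrX:93632270-93632309, minus strand: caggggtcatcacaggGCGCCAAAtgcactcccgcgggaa
In Mcm5 and in the upstream window of Mcm6, different words on opposite strands overlapped to form an imperfect inverted repeat. Of the 14 genes with a word, 12 fell by day 9, with a median log2 change of -0.35 and a range of -0.63 to -0.12. Of the 19 genes whose promoter held none of these words, 15 fell, with a median of -0.20. Of the 7 genes without a promoter entry, which could not be searched, 6 fell, with a median of -0.40. The differences between these sets were not tested.

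Of the 5 licensing genes, 4 fell by day 9, and their median log2 change was -0.41. Orc1, the ATPase subunit of ORC, had log2 values of 8.63, 8.63 and 8.53 at day 0 and of 8.09, 7.93 and 8.04 at day 9. It fell by 0.58 ± 0.055 (SE, adjusted p = 7.87e-06), to 66.9% of its day 0 level. Cdc6, the ATPase that acts with ORC to load MCM rings, fell by 0.43 ± 0.075, and Orc6 fell by 0.41 ± 0.065. Cdt1, which brings the MCM ring to ORC, had values of 10.42, 10.47 and 10.38 at day 0 and of 10.19, 10.18 and 10.14 at day 9, with no overlap (log2 change -0.25 ± 0.038). Orc2, another ORC subunit, was at 10.22, 10.10 and 9.98 at day 0 and at 10.02, 9.99 and 9.97 at day 9. Its groups overlapped, and its log2 change of -0.11 ± 0.055 did not pass (adjusted p = 0.168, but 0.0194 without Scr day 0 replicate 3).

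**Figure D2:**
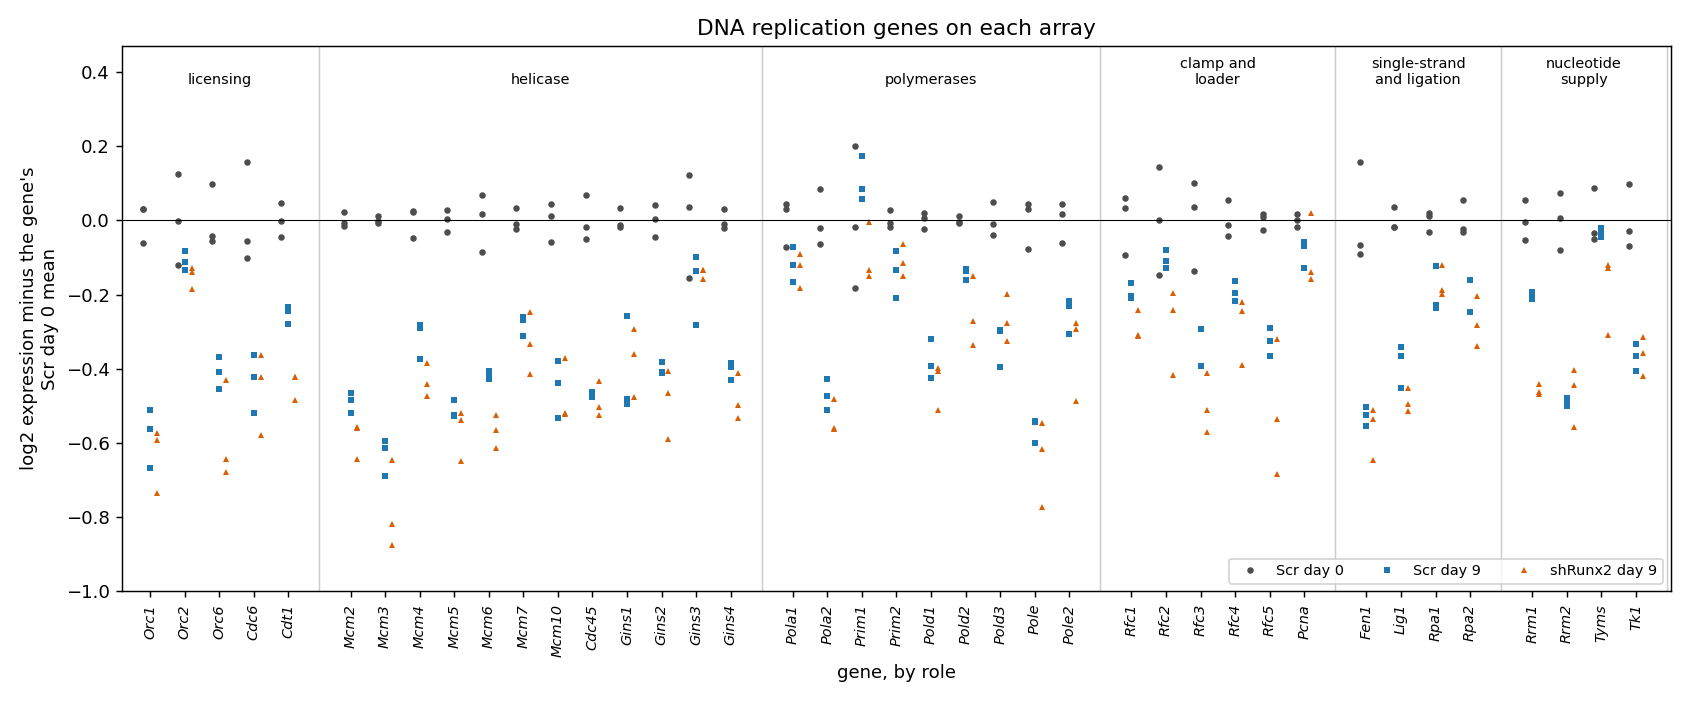
Log2 expression of each of the 40 DNA replication genes (horizontal axis, by role) on each of the 9 arrays, given as the difference from the gene's Scr day 0 mean (vertical axis), with 1 point per array. In 34 genes the Scr day 9 points lie below all day 0 points, and for Prim1, Orc2, Gins3, Pola1, Rfc2 and Tyms they overlap.

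Helicase genes formed the largest role and fell in 11 of 12 cases, with a median log2 change of -0.41. All 6 subunits of the MCM ring fell, by amounts that ranged from 0.63 to 0.28. Mcm3 had log2 values of 10.60, 10.59 and 10.58 at day 0 and of 9.90, 9.98 and 10.00 at day 9. It fell by 0.63 ± 0.055 (adjusted p = 3.76e-06), which placed each day 9 array well below each day 0 array. Mcm5 fell by 0.51 ± 0.042 from a mean of 11.45 to 10.94, and Mcm2 by 0.49 ± 0.038 from 11.30 to 10.81. Mcm6 fell by 0.42 ± 0.044 and Mcm4 by 0.32 ± 0.042. Mcm7 showed the smallest fall of the ring, by 0.28 ± 0.045, with values of 11.36, 11.32 and 11.31 at day 0 and of 11.07, 11.02 and 11.06 at day 9. Whether the falls differed between subunits was not tested.

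Of the cofactors that turn the MCM ring into the active helicase, all but Gins3 fell. Cdc45 had values of 10.11, 10.23 and 10.15 at day 0 and of 9.70, 9.69 and 9.69 at day 9, a log2 change of -0.47 ± 0.042. Mcm10, which acts in helicase activation and is not part of the ring, fell by 0.45 ± 0.054. Of the 4 GINS genes, Gins1 fell by 0.41 ± 0.066, Gins4 by 0.40 ± 0.040 and Gins2 by 0.40 ± 0.048. Gins3 was at 9.42, 9.33 and 9.14 at day 0 and at 9.16, 9.02 and 9.20 at day 9. These values overlapped, and the log2 change of -0.17 ± 0.068 did not pass (adjusted p = 0.0793). It passed in 5 of 19 alternatives, in a range of 0.00616 to 0.279.

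Polymerase and primase genes fell in 7 of 9 cases, with a median log2 change of -0.25, and were the role with the widest range. Pole, the catalytic subunit of the polymerase that extends the leading strand, had values of 10.93, 10.95 and 10.83 at day 0 and of 10.36, 10.36 and 10.30 at day 9. It fell by 0.56 ± 0.057, whereas Pole2, its partner subunit, fell by 0.25 ± 0.058. Of the polymerase delta genes, which act mainly on the lagging strand, Pold1 fell by 0.38 ± 0.043 and Pold3 by 0.33 ± 0.046. Pold2 had a log2 change of -0.14 ± 0.046 at an adjusted p of 0.0335, and this call was lost on leaving out any 1 of the 6 Scr arrays, with every probe set in the fit, or with quantile normalization, in a range of 0.00766 to 0.0936 over 19 alternatives. Its 6 values did not overlap, at 11.73, 11.74 and 11.75 at day 0 and 11.61, 11.60 and 11.58 at day 9.

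The polymerase alpha and primase genes behaved unevenly. Pola2, the accessory subunit, fell by 0.47 ± 0.047, from values of 10.83, 10.79 and 10.94 to 10.42, 10.38 and 10.34. Pola1, the catalytic subunit, was at 9.58, 9.57 and 9.46 at day 0 and 9.46, 9.37 and 9.42 at day 9, and its log2 change of -0.12 ± 0.045 did not pass (adjusted p = 0.0645, passed in 6 of 19 alternatives). Prim2, the large primase subunit, fell by 0.14 ± 0.042 (adjusted p = 0.0227), and not without Scr day 0 replicate 2, without Scr day 9 replicate 2 or with quantile normalization, in a range of 0.00118 to 0.103. Prim1, the catalytic primase subunit, was the only one of the 40 genes with a positive log2 change (0.11 ± 0.082, adjusted p = 0.399). Its day 0 values of 10.28, 10.07 and 9.90 spread more widely than those of any other of these genes and took in the day 9 values of 10.26, 10.14 and 10.17. Without Scr day 0 replicate 1, Prim1 was called higher (log2 change 0.21, adjusted p = 0.0377).

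The clamp and its loader fell in 4 of 6 cases, with a median log2 change of -0.19. Within RFC, the complex that opens the clamp and places it on DNA, Rfc3 fell by 0.33 ± 0.063 and Rfc5 by 0.33 ± 0.073, Rfc1, the large subunit, by 0.19 ± 0.045 and Rfc4 by 0.19 ± 0.049. Rfc2 was at 10.31, 10.02 and 10.17 at day 0 and 10.08, 10.05 and 10.03 at day 9, which overlapped (log2 change -0.11 ± 0.073, adjusted p = 0.332). Pcna, the clamp itself and a widely used marker of proliferation, was at 12.27, 12.24 and 12.26 at day 0 and at 12.19, 12.13 and 12.20 at day 9. Its day 9 values were all lower but by little (log2 change -0.09 ± 0.049, adjusted p = 0.231, passed in none of 19 alternatives). A second Pcna probe set gave -0.11 ± 0.16. Between shRunx2 and Scr cells at day 9 it gave -0.33 ± 0.16, against -0.007 for the first set. Between shRunx2 cells and day 0 it gave -0.44 ± 0.16, against -0.09. None of these passed with every probe set in the fit. The Pcna and Tk1 probe sets may share sequence with near-identical copies, so the values of these genes are uncertain.

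Single-strand binding, flap-trimming and ligation genes fell in 4 of 4 cases, with a median log2 change of -0.29. Fen1, the nuclease that trims the flaps of lagging-strand fragments, fell by 0.53 ± 0.063, from 10.43, 10.18 and 10.20 to 9.77, 9.75 and 9.72. Lig1, the ligase that joins these fragments, fell by 0.39 ± 0.040. Rpa1 and Rpa2, subunits of the protein that coats single-stranded DNA, fell by 0.20 ± 0.042 and 0.19 ± 0.046.

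In nucleotide supply, 3 of 4 genes fell. Rrm2, the small subunit of ribonucleotide reductase, which makes deoxyribonucleotides, fell by 0.49 ± 0.050, from 11.76, 11.69 and 11.60 to 11.20, 11.20 and 11.18. Rrm1, its large subunit, fell by 0.20 ± 0.037, and the thymidine salvage kinase Tk1 fell by 0.37 ± 0.049. A second Tk1 probe set gave -0.46 ± 0.055 by day 9, and -0.07 between shRunx2 and Scr cells, against 0.005 for the first set. Tyms, which makes thymidylate, was at 11.04, 11.18 and 11.06 at day 0 and at 11.08, 11.05 and 11.06 at day 9. The Tyms log2 change of -0.03 ± 0.055 was the smallest of the 40 genes in size (adjusted p = 0.730), and it turned to 0.02 with quantile normalization and to 0.01 without Scr day 0 replicate 2.

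**Figure D3:**
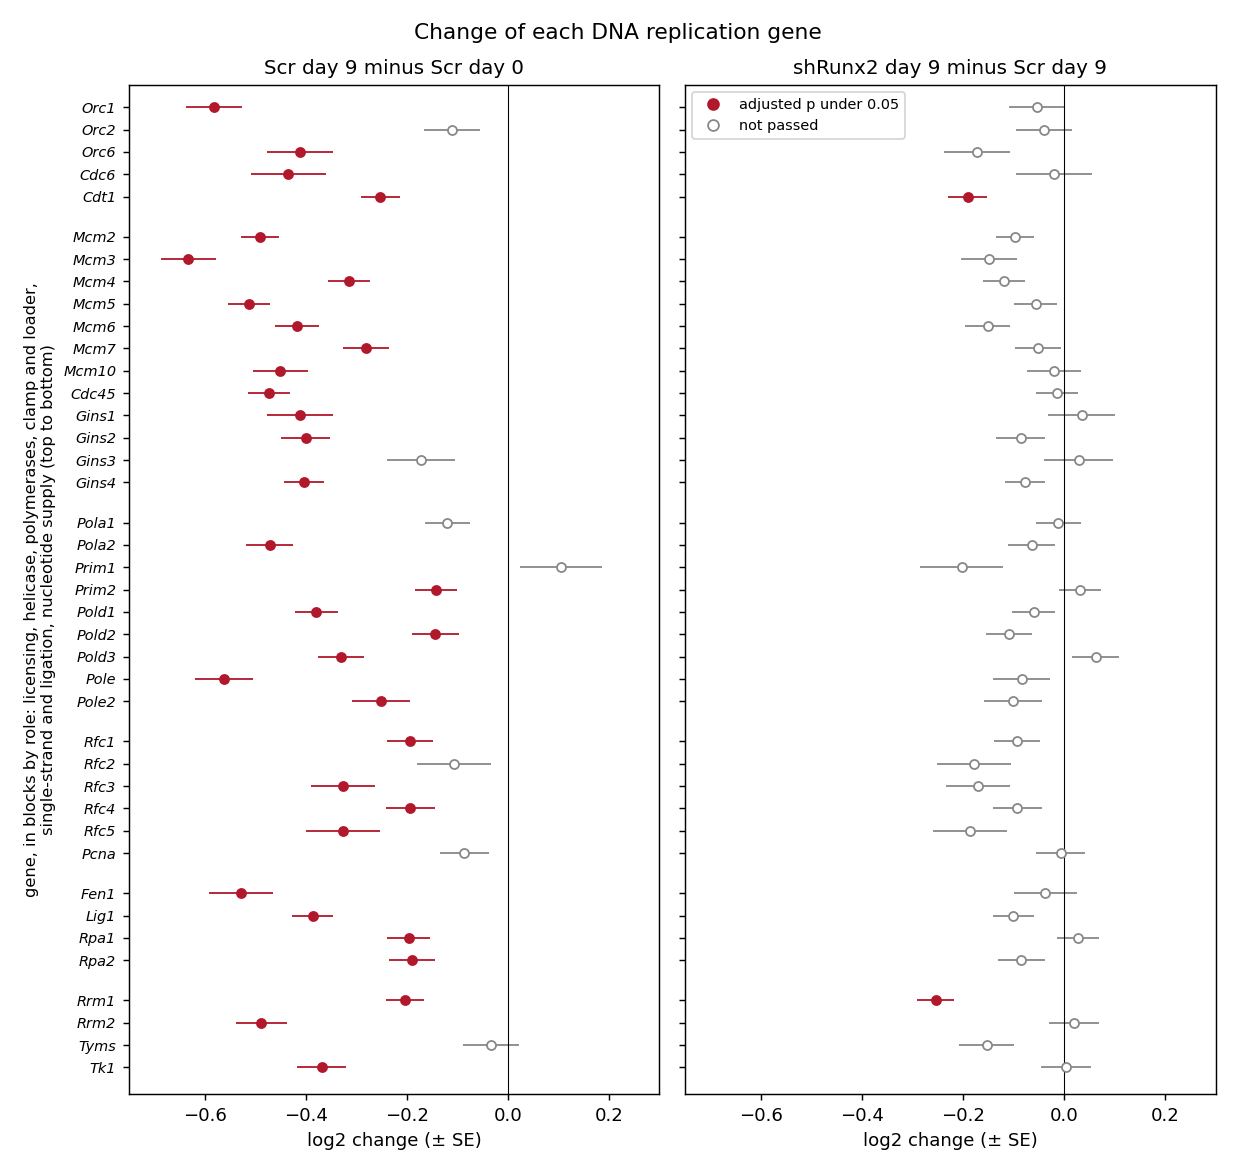
Log2 change (horizontal axis, ± SE of the model) of each of the 40 DNA replication genes (vertical axis, by role) from Scr day 0 to Scr day 9 (left) and from Scr to shRunx2 at day 9 (right), filled where the adjusted p was under 0.05. On the left 33 genes are filled, all below 0, and on the right 2 are filled, Cdt1 and Rrm1.

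To determine whether the replication genes differed when Runx2 was depleted, shRunx2 cells were compared with Scr cells at day 9. Of the 40 genes, 2 fell (Cdt1 and Rrm1), none rose and 38 did not pass. This share was close to the background, since 4.66% of all genes fell and 2.73% rose. At an unadjusted p under 0.05, 14 of the 40 genes were lower and none was higher, whereas 12.4% of all genes were lower. The 3 shRunx2 arrays lay below the 3 Scr arrays in 12 of the 40 genes, compared with 15.3% of all genes. The median log2 change was -0.08, or 94.6% of the Scr level, and that of all genes was -0.004, with 33 of the 40 genes and 10396 of the 19937 genes below 0. With quantile normalization over the named genes, the median of the 40 genes was -0.05, with 28 below 0. The 95% intervals of the 38 genes that did not pass lay between -0.38 and 0.18, so that differences beyond 76.7% and 113% of the Scr level were outside them. The comparison shares the Scr day 9 arrays with the one above.

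Rrm1 had log2 values of 12.41, 12.40 and 12.42 in Scr cells and of 12.15, 12.15 and 12.18 in shRunx2 cells. The groups were narrow and far apart, and Rrm1 fell by 0.25 ± 0.037 (adjusted p = 0.00151), to 83.9% of the Scr level. In contrast, Rrm2, the other subunit of the enzyme, was at 11.20, 11.20 and 11.18 in Scr cells and at 11.13, 11.28 and 11.24 in shRunx2 cells, which overlapped (log2 change 0.02 ± 0.050). Whether the subunits differed in their response was not tested. Cdt1 was at 10.19, 10.18 and 10.14 in Scr cells and at 9.94, 10.00 and 10.00 in shRunx2 cells. It fell by 0.19 ± 0.038 (adjusted p = 0.0110), but not without Scr day 9 replicate 2 (0.0515) or shRunx2 replicate 1 (0.0526). Both Rrm1 and Cdt1 also fell from day 0 to day 9, so that the levels ran down from Scr day 0 through Scr day 9 to shRunx2 day 9 without overlap.

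The other genes did not pass. Mcm6, the nearest to the threshold, was at 10.66, 10.63 and 10.64 in Scr cells and at 10.50, 10.54 and 10.45 in shRunx2 cells, without overlap (log2 change -0.15 ± 0.044, adjusted p = 0.0693, passed in 4 of 19 alternatives). The other MCM ring genes had log2 changes from -0.15 (Mcm3) to -0.05 (Mcm7). Tyms, which had not passed between days, was at 11.08, 11.05 and 11.06 in Scr cells and at 10.79, 10.98 and 10.97 in shRunx2 cells (log2 change -0.15 ± 0.055, adjusted p = 0.143). Prim1 had a log2 change of -0.20 ± 0.082 (adjusted p = 0.194). By role, the median log2 changes were -0.05 for licensing, -0.07 for the helicase, -0.06 for polymerases and -0.13 for the clamp and loader. They were -0.06 for single-strand binding, flap trimming and ligation and -0.07 for nucleotide supply.

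Replicates 1 and 2 of shRunx2 each moved these values. On shRunx2 replicate 1, 33 of the 40 genes lay below the mean of their group, whereas on replicate 2, 30 lay above it. The mean of the 40 genes was 10.20 on replicate 1, 10.30 on replicate 2 and 10.27 on replicate 3. For Rfc5 the 3 values were 11.02, 11.39 and 11.17, against 11.34, 11.38 and 11.42 in Scr cells. The median log2 change of the 40 genes was -0.05 without replicate 1 and -0.10 without replicate 2. Without replicate 1, 1 gene fell, and without replicate 2, 6 did.

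**Figure D4:**
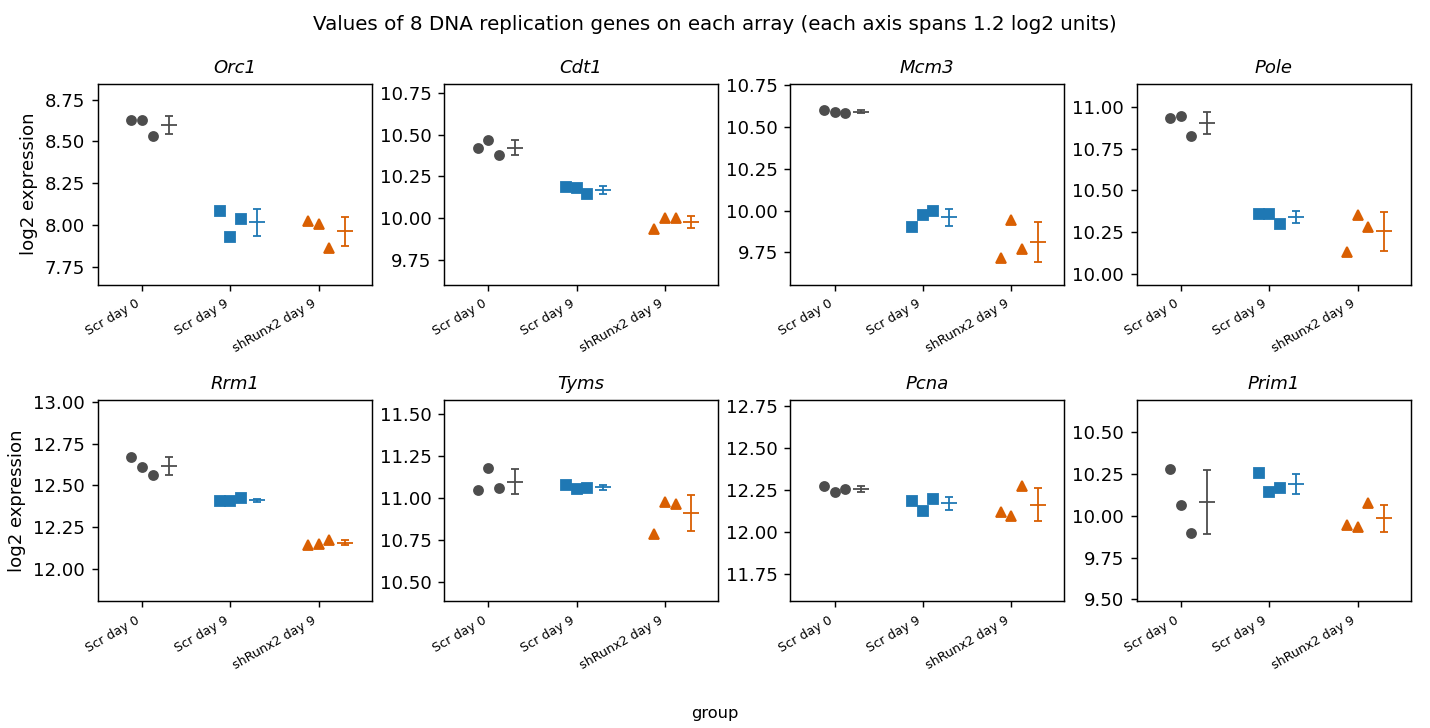
Log2 expression (vertical axis) of 8 DNA replication genes in the 3 groups (horizontal axis). Points are single arrays, and the bar beside them gives the mean and SD (n = 3). Rrm1 and Cdt1 step down without overlap between the 3 groups, Orc1, Mcm3 and Pole step down between days. The Pcna values of shRunx2 cells overlap both Scr groups, and the Prim1 values of day 0 overlap both day 9 groups.

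In shRunx2 cells at day 9 compared with Scr cells at day 0, which combines both steps and shares arrays with both, 35 of the 40 genes fell and none rose, against 20.4% and 13.8% of all genes. The median log2 change was -0.44, or 73.7% of the day 0 level. At least 1.5-fold falls were seen for Mcm3 (log2 change -0.78 ± 0.055), Pole (-0.65 ± 0.057), Orc1 (-0.63 ± 0.055) and Mcm2 (-0.59 ± 0.038), compared with 2.79% of all genes. Orc2, Gins3, Prim1, Prim2 and Pcna did not pass. Orc2 passed in 5 alternatives, Prim2 in 4, Pcna in 2 and Gins3 in 1. The call of Pola1 was lost in 8 besides the 1.5-fold threshold. That of Tyms was lost in 6 (adjusted p up to 0.183) and that of Rpa1 in 2 (up to 0.187), with the 1.5-fold threshold counted. For Mcm3 the log2 changes of this comparison, of the day 9 and of the knockdown comparison were -0.78, -0.63 and -0.15, and for Rrm1 they were -0.46, -0.20 and -0.25.

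The other genes of the pathway were examined as a list of 62, of which 61 were measured. By day 9 in Scr cells, 34 fell, 7 rose and 20 did not pass, with a median log2 change of -0.22. Of all genes, 17.1% fell and 14.5% rose, so that the share that rose was not above that of all genes. The 8 with the smallest adjusted p all fell. They were Dbf4 (-0.70 ± 0.063), the activating subunit of the kinase that fires origins, E2f7 (-0.68 ± 0.049), a repressor of the E2F family, Asf1b (-0.68 ± 0.056), a histone chaperone, and Ticrr (-0.67 ± 0.043), which helps load Cdc45. The others were Mybl2 (-0.55 ± 0.049), an activator of cell cycle genes, Dnmt1 (-0.54 ± 0.052), which copies DNA methylation, E2f6 (-0.51 ± 0.044), another E2F repressor, and Dck (-0.44 ± 0.045), a salvage kinase for deoxynucleosides. Of 10 firing kinases and factors 8 fell, of 8 genes for copying chromatin 6 fell, of 15 E2F and pocket protein regulators 8 fell and 2 rose, and of 12 accessory subunits of polymerases and forks 6 fell and 2 rose. Of 7 other genes of nucleotide supply and turnover 3 fell and 2 rose, of 5 other licensing genes 2 fell and 1 rose, and of 4 genes of alternative clamp loaders 1 fell.

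The 7 that rose by day 9 were Dtymk (0.41 ± 0.043), the thymidylate kinase, Rb1 (0.27 ± 0.048), the pocket protein that restrains E2F factors, Dctd (0.25 ± 0.038), a deaminase that supplies deoxyuridylate, Pold4 (0.23 ± 0.045), the smallest subunit of polymerase delta, Orc3 (0.22 ± 0.045), Lin52 (0.14 ± 0.047) and the nuclease Dna2 (0.13 ± 0.044). The calls of Lin52 and Dna2 were lost when arrays were centred (adjusted p = 0.115 and 0.0988) or quantile normalized again (0.104 and 0.063). Other alternatives also lost them. The Lin52 groups overlapped. Dna2 had the same value (8.4892) on all 3 Scr day 9 arrays, which narrows its estimated spread. Orc3 had values of 11.31, 11.31 and 11.21 at day 0 and of 11.53, 11.47 and 11.50 at day 9, the opposite direction to Orc1 and Orc6 in the same complex. In the knockdown comparison, 1 of the 61 fell and 1 rose, shares below the 4.66% and 2.73% of all genes. E2f5, a member of the E2F family, fell by 0.22 ± 0.045 (adjusted p = 0.0118). Samhd1, which breaks down deoxynucleotides, fell by 0.42 ± 0.049 between the days in Scr cells. In shRunx2 cells it was also below day 0 (log2 change -0.21 ± 0.049, adjusted p = 0.00487). It rose in the knockdown comparison, which uses the same Scr day 9 arrays, by 0.20 ± 0.049 (adjusted p = 0.0279). The Samhd1 call was lost without Scr day 9 replicate 2 or 3, without any 1 of the shRunx2 arrays, with every probe set and in a fit to the 6 day 9 arrays alone (adjusted p up to 0.127). The next smallest adjusted p values belonged to Mcmbp (-0.14 ± 0.041), Dbf4 (-0.21 ± 0.063), Mtbp (-0.20 ± 0.064), E2f4 (-0.13 ± 0.045), Tk2 (0.12 ± 0.041) and Pole4 (-0.12 ± 0.042), none of which passed. Dbf4 and Mcmbp each passed in 5 alternatives. Compared with day 0, 37 of the 61 fell and 8 rose in shRunx2 cells, against 20.4% and 13.8% of all genes, so that the share that rose was not above that of all genes.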

How the data were processed

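Each of 9 RNA samples was measured on 1 Affymetrix array (Mouse Gene 1.0 ST). The deposited values are log2 expression values that the authors made with RMA (background correction, quantile normalization across arrays, median polish of the probes). The methods mention a filter without giving its rule, and the genome build was not given in the sources used here. Quantile normalization makes the arrays alike in distribution, so a change shared by most genes would not be seen. The table held 34760 probe sets, and the platform annotation gave 1 gene symbol for 21640 of them, several for 1321 and none for 11799. Those with 1 symbol were kept, and of several for a gene the one with the highest mean over 9 arrays, which left 19937 genes. No covariate, filter or further normalization was used.

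Group means were fitted to all 9 arrays with lmFit and eBayes of limma 3.58.1 (R 4.3.3), and p values were adjusted over 19937 genes by the Benjamini-Hochberg method (threshold 0.05). The scripts were tested on simulated data. Groups came from the sample labels, which call the samples biological replicates. The number of arrays, 3 in a group, sets the precision. The members, the other gene lists, the marker lists and the promoter words were chosen with earlier results of these data known. Named genes were all 40 members, the 8 other replication genes with the smallest adjusted p in each of the day 9 and the knockdown comparison, and every other one that rose. Promoter windows were cut from RefSeq (GRCm38.p6). Protein sequences were not used here. Runx2 is not analysed here. The 19 alternatives were the replicate number as a block, only the arrays of the 2 groups, array weights, an intensity trend, centring, quantile normalization over named genes, genes at or above the median expression, every probe set, the mean of a gene's probe sets, a 1.5-fold threshold, and leaving out each array in turn.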

Additional observations from a re-analysis of the deposited data

How the results depend on the processing

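No alternative changed the direction of a member that had passed. Of the 40 members, the number lower by day 9 in Scr cells was 31 to 35 on leaving out each array in turn and 1 at a change of at least 1.5-fold, and the number higher was 0 to 1 (Prim1 without Scr day 0 replicate 1). The number lower in shRunx2 than in Scr cells was 1 to 6 (1 without Scr day 9 replicate 2 or shRunx2 replicate 1, 6 without shRunx2 replicate 2), 5 with array weights and 0 at 1.5-fold. The number lower in shRunx2 than in Scr day 0 cells was 33 to 37, and 4 at 1.5-fold. Of the other replication genes, the number lower by day 9 was 4 at 1.5-fold and the number higher 0. In the knockdown comparison the number lower was 1 to 2 on leaving out each array, 2 with an intensity trend, 3 with only the arrays of the 2 groups, 5 with array weights, 4 of 50 tested among genes at or above the median expression and 0 at 1.5-fold. The number higher was 0 to 1 on leaving out each array, 2 with quantile normalization, and 0 with only the arrays of the 2 groups, with every probe set or at 1.5-fold. Against day 0, 6 were lower and 0 higher at 1.5-fold, and 5 were higher with arrays centred on the median.

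Changes of sign were seen only among values near 0 that did not pass. In the knockdown comparison, quantile normalization gave log2 changes of 0.0043 (Orc2), 0.0013 (Mcm10), 0.0128 (Cdc45), 0.0085 (Pola1) and 0.0275 (Pcna), array weights 0.0177 (Pola1) and 0.0224 (Pcna), and the mean of the probe sets -0.0311 (Tk1). On leaving out each array, the ranges were -0.0659 to 0.0419 (Cdc6), -0.0696 to 0.0161 (Mcm10), -0.0417 to 0.0050 (Cdc45), -0.0072 to 0.1118 (Gins1), -0.0256 to 0.0658 (Gins3), -0.0343 to 0.0143 (Pola1), -0.0014 to 0.0616 (Prim2), -0.0633 to 0.0265 (Pcna), -0.0634 to 0.0044 (Fen1), -0.0126 to 0.0642 (Rrm2) and -0.0204 to 0.0328 (Tk1). For Tyms from day 0 to day 9 in Scr cells the value was 0.0203 with quantile normalization and -0.0584 to 0.0101 on leaving out each array, and for Prim1 from Scr day 0 to shRunx2 day 9 it was -0.1884 to 0.0033. The cause was not tested.

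Same-numbered arrays were the best match only in part. Of the Scr day 9 arrays, replicates 1 and 3 matched day 0 replicates 1 and 3 best, and replicate 2 matched replicate 3. Of the shRunx2 arrays, only replicate 2 best matched its own number in Scr cells at day 9. The correlations of same-numbered deviations were 0.294, 0.0823 and 0.285 between Scr day 0 and day 9 and -0.0371, 0.0961 and -0.114 between Scr and shRunx2 at day 9. With the replicate number as a block, 33 members were lower by day 9, 2 in the knockdown and 35 against day 0, and 2 of the other replication genes (E2f5, and Dbf4 at an adjusted p of 0.0435) were lower in the knockdown. Against day 0, Orc2 passed (0.0425) and Pola1 did not (0.0581), so that the count of 35 was kept with 1 gene exchanged.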
